A study of Danio rerio with 228 samples.

Results

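Solute carriers are the membrane proteins that move amino acids, sugars, ions, metals, nucleotides and organic acids into cells and between their compartments. They were read here as the probes whose gene symbol starts with slc followed by a digit, which gave 89 of the 3183 probes on a targeted zebrafish panel, 1 probe a gene. The 89 genes fall into 28 families, numbered by the digits after slc. Families 6, 2, 7 and 25 were the largest, with 9, 8, 8 and 8 members, and 10 families had 1 member each. One of the 89, slc9a3r1a, encodes a scaffold protein that binds carriers and is not itself a carrier; it was kept because the symbol rule takes it.

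Most carriers are secondary transporters: they use the sodium, proton or counter-substrate gradients that pumps set up, and the family number groups proteins by sequence rather than by substrate. Heavy chains of family 3 pair with light chains of family 7 to exchange amino acids, family 2 holds the facilitative glucose transporters, family 16 the monocarboxylate transporters, and family 25 the carriers of the mitochondrial inner membrane. In vertebrates several amino acid carriers are known targets of the integrated stress response, and carriers of organic anions and bile acids are the routes by which perfluoroalkyl acids are known to cross kidney, liver and gut epithelia. Roles named below are those described for the mammalian proteins unless stated.

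The samples were pools of 10 whole zebrafish embryos kept from hour 4 until hour 120 after fertilization in 1 of 9 per- and polyfluoroalkyl substances (PFAS), each at 5 concentrations, in 0.1% dimethyl sulfoxide (DMSO). The carboxylates were PFBA, PFHxA, PFOA, PFNA and PFDA, in order of rising chain length, and the sulfonates were PFBS, PFHxS, PFOS and PFDS. Each exposed group held 4 pools, or 5 for PFOS at every concentration and for PFOA at 40, 120 and 400 µM. The controls carried the same 0.1% DMSO and no PFAS. PFBA, PFHxA, PFBS and PFHxS were compared with 6 DMSO pools of embryos from the Ottawa breeding facility, PFOA, PFOS, PFDS and PFDA with 4 DMSO pools of mixed Ottawa and Montreal origin, and PFNA with 16 Ottawa DMSO pools of a separate processing batch. Of those 16 pools, 4 were in the extraction batch of the exposed PFNA pools and 12 were in other extraction batches. All 16 titles give the PFNA control group, but the sample identifiers of the 12 name EM, ENV and EP controls. The control group of PFDA is not spelled out in the labels, and the mixed pools were used because the PFDA pools carry the same labelled origin. A further 2 DMSO pools that the submitters marked as outliers entered no comparison. No strain, sex or individual embryo was labelled, nothing said whether pools of a group came from separate clutches, and the p-values therefore measure the spread between pools.

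The 216 embryo libraries held 2254364 to 4466565 probe counts each, with a median of 3217200. The carriers took a median of 0.660% of the counts of an embryo library. Over the probes that differed between the mixed and the Ottawa DMSO pools (4.67% of 2612 tested, edgeR's quasi-likelihood test), each pool was placed on a scale where 0 is the mean of the Ottawa DMSO pools and 1 that of the mixed ones. The 25 PFOS pools, labelled mixed, lay at 0.06 to 0.67, and the 5 pools at 40 µM at 0.06 to 0.28, nearer to the Ottawa pools. PFOA, PFDS and PFDA pools lay at 0.53 to 1.40. The 2 left-out DMSO pools, labelled Ottawa, lay at 0.94 and 1.37. Of the 70 carriers tested between the DMSO groups, 5 were called: slc10a2 and slc51a were higher in the mixed pools, and slc22a6l, slc39a4 and slc6a19b were lower. PFOS calls are given against the mixed pools, and beside each carrier it is said whether the call held against the Ottawa pools. Of all embryo libraries, 4 correlated least with their own group, at r of 0.933 to 0.948 against a median of 0.979: replicate 4 of PFHxS 400 µM, replicate 3 of PFBS 80 µM, replicate 1 of PFOA 4 µM and replicate 10 of the PFNA DMSO pools. In those libraries slc25a5, an ADP/ATP exchanger of mitochondria, stood at 6779 to 16567 CPM (counts scaled to the library total), above the 1513 to 5485 of the other 212 embryo libraries.

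A gene was called changed at a Benjamini-Hochberg adjusted p under 0.05 from edgeR's quasi-likelihood test over all probes that passed a low-count filter. Of the 89 carriers, 74 passed that filter in the fits of all 9 chemicals and 78 in at least 1. The 11 that passed in none were slc10a1, slc22a7a, slc25a46, slc26a3.1, slc2a13b, slc2a6, slc47a2.1, slc5a3a, slc6a14, slc7a3b and slc7a8b, each with a median of 0 to 2 counts per library. A further 4 passed in some fits only: slc17a6b in 4 chemicals, and slc18a2, slc25a20 and slc6a6a in 1. Carrier levels below are TMM-scaled counts scaled to library size (CPM) of single pools. They are comparable between pools but not between genes, since probes differ in efficiency. Levels of the other gene lists and tissue markers are counts scaled to the library total alone, without TMM. Changes are log2 ratios of exposed over DMSO pools with their standard error (SE).

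Carriers changed after 6 of the 9 chemicals at their highest concentration, in 50 genes and 90 gene-by-chemical calls. PFNA at 450 µM called 13 carriers higher and 17 lower of 77 tested, where 33.1% of all probes were called. PFOS at 40 µM called 13 higher and 9 lower of 74 (26.9% of all probes), and PFHxS at 400 µM 13 higher and 2 lower of 75 (21%). PFHxA at 600 µM called 2 higher and 12 lower of 76 (20.3%). PFDS at 6 µM called 6 higher and 2 lower of 74 (10.2%), and PFOA at 400 µM a single carrier lower of 74 (2.53%). In each case the share of carriers called, at 38.96, 29.7, 20.0, 18.4, 10.8 and 1.35% in that order, was within 1.5 times that of all probes or below it. Median log2 changes of the tested carriers were -0.09 for PFNA, 0.10 for PFOS, 0.24 for PFHxS, -0.17 for PFHxA, 0.11 for PFDS and -0.02 for PFOA, beside -0.09, 0.03, 0.01, -0.04, -0.02 and 0.00 over all probes. Called carriers moved by 1.31 to 3.95 fold. With extraction batch as a term the PFHxA count was 3, the PFHxS count 9 and the PFOS count 12. Of these, 3, 5 and 11 were among the 14, 15 and 22 called without the term. After PFHxA, PFHxS, PFOS and PFDS, the exposed pools at the highest concentration shared only some extraction batches with their DMSO pools. Exposure and extraction batch therefore could not be fully told apart in these comparisons. Against only the 4 DMSO pools extracted with the PFNA pools, the PFNA count was 19.

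**Figure D1:**
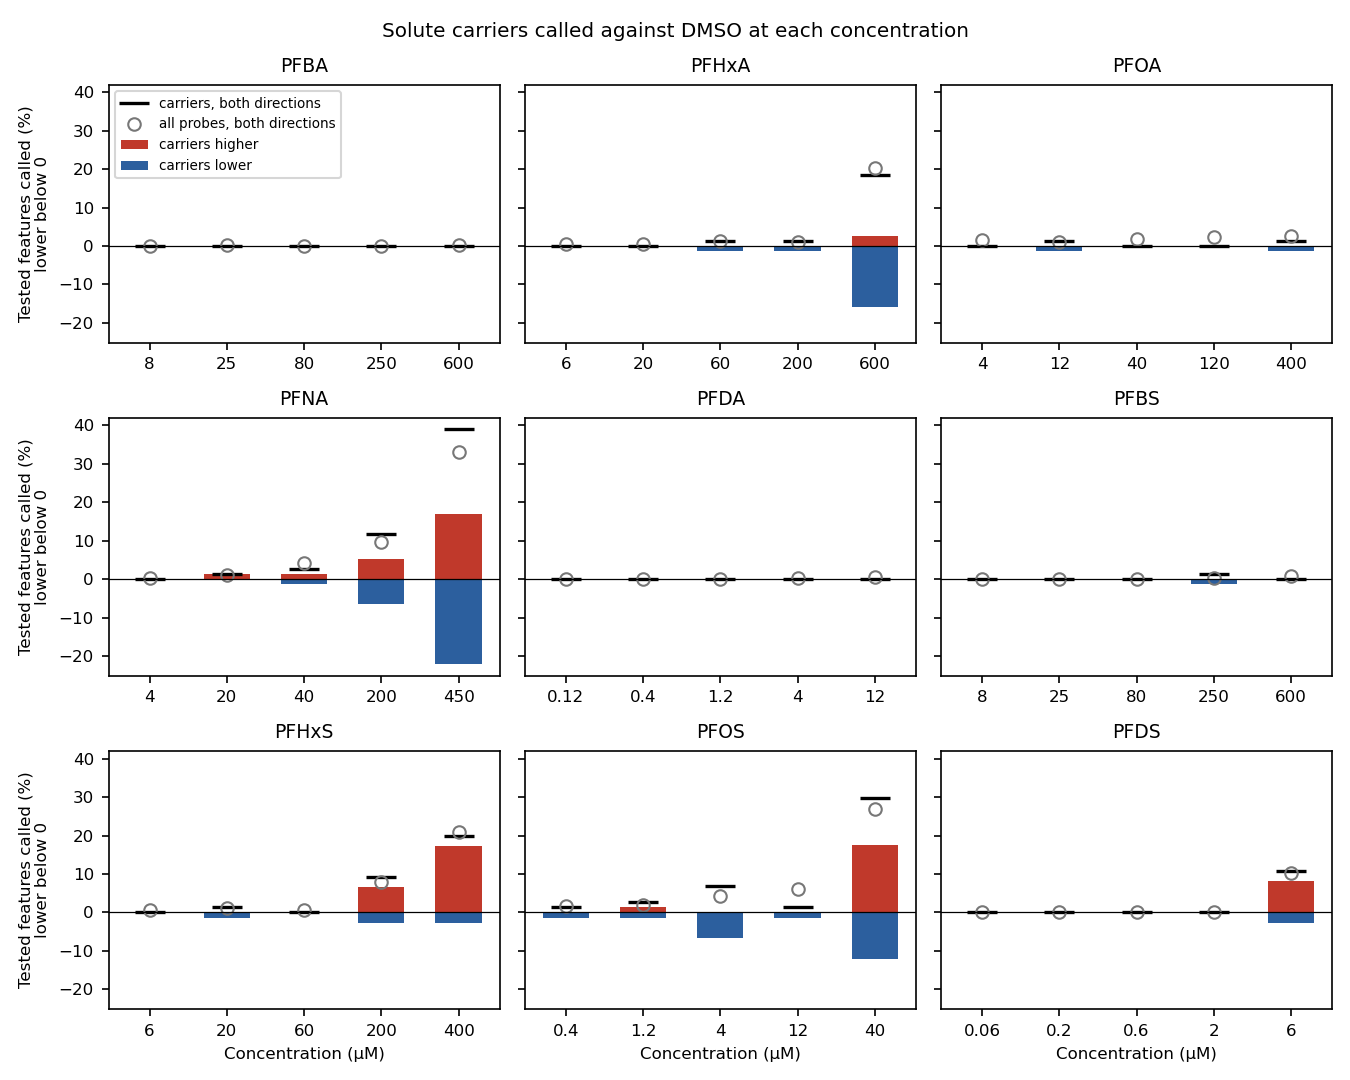
Percent of tested carriers called higher (red, above 0) and lower (blue, below 0) than DMSO at each concentration (µM) of the 9 PFAS, with the share called in either direction for carriers (black dash) and for all probes (open circle). At the highest concentration the carriers' share lay between 0 and 38.96%, beside 0.146 to 33.1% of all probes.

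No carrier was called after PFBA, PFDA or the highest concentration of PFBS by edgeR's quasi-likelihood test. For PFBA at 8, 25, 80, 250 and 600 µM, 0, 0.182, 0, 0 and 0.146% of all probes were called, and 6, 9, 8, 4 and 7 of 74 carriers had an unadjusted p under 0.05, with 2, 0, 0, 0 and 0 called by DESeq2. Unadjusted shares were 8.11, 12.16, 10.81, 5.41 and 9.46% of carriers and 6.48, 8.19, 6.84, 7.17 and 7.43% of all probes. PFDA at 0.12, 0.4, 1.2, 4 and 12 µM called 0.0364, 0.0364, 0.109, 0.292 and 0.583% of all probes, with 4, 5, 7, 8 and 6 of 74 carriers under an unadjusted 0.05 and 0, 0, 0, 0 and 1 called by DESeq2. Here the unadjusted shares were 5.41, 6.76, 9.46, 10.81 and 8.11% of carriers and 4.96, 5.36, 6.85, 6.89 and 6.81% of all probes. PFBS at 8, 25, 80, 250 and 600 µM called 0.0365, 0.0365, 0.0365, 0.328 and 0.875% of all probes, with 7, 7, 14, 10 and 5 of 75 carriers under an unadjusted 0.05 and 0, 1, 2, 1 and 0 called by DESeq2. For PFBS the unadjusted shares were 9.33, 9.33, 18.67, 13.33 and 6.67% of carriers and 6.96, 6.27, 16.95, 5.797 and 7.04% of all probes. The only carrier called in these series was slc25a4, another ADP/ATP exchanger, which fell by 1.40 ± 0.29 on the log2 scale at 250 µM PFBS (adjusted p = 0.0207). The 95% intervals of the carriers at the highest concentration had a median half-width of 0.47 on the log2 scale for PFBA, 0.50 for PFDA and 0.53 for PFBS. Smaller changes were not detectable in most of them. Calls used an adjusted p, so larger changes could be missed too. Log2 changes without a call ran from -0.97 to 0.72 after PFBA, -1.38 to 0.91 after PFDA and -1.84 to 0.83 after PFBS.

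Lower concentrations gave 33 carrier calls in all. PFNA at 4, 20, 40 and 200 µM called 0, 1, 2 and 9 carriers of 77, where 0.246%, 1.23%, 4.21% and 9.69% of all probes were called. PFHxS at 6, 20, 60 and 200 µM called 0, 1, 0 and 7 of 75, beside 0.731%, 1.06%, 0.768% and 7.97% of all probes. PFOS at 0.4, 1.2, 4 and 12 µM called 1, 2, 5 and 1 of 74, beside 1.77%, 1.92%, 4.35% and 6.23% of all probes. PFHxA at 6, 20, 60 and 200 µM called 0, 0, 1 and 1 of 76, with 0.546%, 0.546%, 1.2% and 1.02% of all probes. PFOA at 4, 12, 40 and 120 µM called 0, 1, 0 and 0 of 74, with 1.61%, 1.1%, 1.72% and 2.31% of all probes. PFDS at 0.06, 0.2, 0.6 and 2 µM called none of 74, with 0%, 0%, 0% and 0.0369% of all probes called by edgeR, 2, 2, 1 and 1 carriers under an unadjusted p of 0.05 and none called by DESeq2. Those PFDS unadjusted shares were 2.703, 2.703, 1.35 and 1.35% of carriers, beside 3.47, 5.28, 2.47 and 3.62% of all probes. Where edgeR called none after PFNA 4 µM, PFHxS 6 and 60 µM, PFHxA 6 and 20 µM and PFOA 4, 40 and 120 µM, the unadjusted test passed 11, 6, 10, 10, 8, 7, 9 and 11 carriers and DESeq2 called 1, 1, 0, 2, 1, 0, 1 and 1. In that order the unadjusted shares of carriers were 14.29, 8, 13.33, 13.16, 10.53, 9.46, 12.16 and 14.86%. Those of all probes were 12.25, 9.29, 11.74, 10.998, 10.998, 18.585, 9.82 and 13.75%.

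Families 1, 3, 6, 7 and 38, which hold mainly amino acid carriers, made up the largest role group, with 25 or 26 tested. Groups follow family numbers, so family 6 also brings in the creatine carrier slc6a8, the dopamine carrier slc6a3 and the serotonin carriers slc6a4a and slc6a4b. One of the rises after each of PFNA, PFHxS, PFOS and PFDS is slc6a8, and 1 of the falls after PFNA is slc6a3. After PFNA 8 of 26 rose and 3 fell, after PFHxS 7 of 25 rose and 1 fell, after PFOS 5 rose and 2 fell, and after PFDS 4 rose and none fell by edgeR's test at the highest concentrations. PFHxA called 1 higher and 8 lower of 25. Of all probes, 33.1% were called after PFNA, 21% after PFHxS, 26.9% after PFOS, 10.2% after PFDS and 20.3% after PFHxA. The median log2 change of the group was 0.14 for PFNA, 0.28 for PFHxS, 0.09 for PFOS, 0.24 for PFDS and -0.39 for PFHxA. Over all probes it was -0.09, 0.01, 0.03, -0.02 and -0.04 in that order.

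Carriers of family 7 take up basic and large neutral amino acids. The arginine and lysine carrier slc7a3a read 1382, 1648, 1198 and 1411 CPM in the 4 pools at 450 µM PFNA, and the 16 DMSO pools had a lowest of 422, a median of 547 and a highest of 766 CPM. Every exposed pool lay above every DMSO pool, a log2 change of 1.36 ± 0.11 (SE, adjusted p = 1.7e-12). After 6 µM PFDS the pools read 1206, 1551, 1467 and 1432 CPM against 907, 934, 588 and 549 CPM in the mixed DMSO pools, a log2 change of 0.93 ± 0.17 (SE, adjusted p = 0.000531). After 40 µM PFOS they read 905, 799, 1392, 1043 and 1418 CPM against 867, 906, 579 and 532, and the groups overlapped, with a log2 change of 0.62 ± 0.17 (SE, adjusted p = 0.00651) and of 0.67 ± 0.13 against the Ottawa pools (adjusted p = 0.000294). PFHxS at 400 µM left 3 pools above and 1 below all DMSO pools: they read 1054, 993, 1232 and 387 CPM in replicate order against a lowest of 612, a median of 681 and a highest of 806 CPM, and the change of 0.40 ± 0.18 did not pass (adjusted p = 0.109). The lowest of these, replicate 4, is the library that stood apart from its group. The same gene fell by 0.58 ± 0.16 after 400 µM PFOA (adjusted p = 0.0375), where the exposed pools at 465, 531, 522, 490.4 and 481 CPM lay below the DMSO pools at 910.2, 941, 588 and 544 CPM. That PFOA call, the only one at this concentration, ended without any 1 of 7 of the 9 libraries and against the PFOA pools at 4 µM. It also ended with the replicate block and with total-count scaling, under which the 1 carrier called was another, and higher. The exchanger light chain slc7a6 rose by 0.91 ± 0.17 after PFNA, in all 4 pools beyond the DMSO range, but the call ended against the PFNA pools at 4 µM. Another light chain, slc7a7, fell by 0.54 ± 0.15 after PFOS, with all 5 pools below the DMSO pools, and by 0.45 ± 0.13 against the Ottawa pools (adjusted p = 0.0144). Without replicate 4 of the mixed DMSO pools the change was -0.36 and did not pass (adjusted p = 0.101).

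The heavy chain slc3a2b, which carries family 7 light chains to the cell surface, rose after 3 chemicals and fell after 1. At 450 µM PFNA it read 304, 426, 294 and 241 CPM against a lowest of 86.1, a median of 119.9 and a highest of 182.2 CPM, and at 6 µM PFDS 685, 754, 692 and 699.5 CPM against 482, 397, 297 and 432 CPM. The exposed pools lay above the DMSO pools in both cases, with log2 changes of 1.37 ± 0.17 (SE, adjusted p = 7.36e-08) and 0.82 ± 0.14 (SE, adjusted p = 0.000303). At 400 µM PFHxS it read 784, 509.6, 488 and 533 CPM against a lowest of 170.2, a median of 222.7 and a highest of 354 CPM, a change of 1.22 ± 0.19 (SE, adjusted p = 2.28e-05). At 600 µM PFHxA it read 123.6, 138.9, 134.8 and 161.4 CPM, below all 6 of the same DMSO pools, a change of -0.83 ± 0.19 (SE, adjusted p = 0.00222), which did not pass against the PFHxA pools at 6 µM. The second copy, slc3a2a, went the other way after PFNA: it read 120.9, 107.6, 107.1 and 113.1 CPM against a lowest of 124.6, a median of 172.2 and a highest of 196.4 CPM, a change of -0.59 ± 0.12 (SE, adjusted p = 0.000142). Each probe reads one short stretch of its transcript, and whether the probes of such copies bind each other's RNA was not tested. The slc3a2a probe also read up to 298 counts in the water libraries, beside a median of 420.5 in embryo libraries.

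Family 38 moves glutamine and other small neutral amino acids with sodium. Its member slc38a3b rose after 4 chemicals. After PFNA it read 171.5, 186.9, 188.005 and 209.2 CPM against a lowest of 50.9, a median of 70.01 and a highest of 122.5 CPM, and after PFDS 157.05, 177.99, 187.3 and 165.3 CPM against 81.05, 92.7, 66.8 and 73.6 CPM, both without overlap. After PFOS the pools at 93.2, 105.98, 190.1, 152.7 and 187.03 CPM also lay above their DMSO pools at 77.4, 89.9, 65.8 and 71.4 CPM, and after PFHxS 3 of 4 pools did, at 151.5, 178.9, 141.9 and 67.4 CPM in replicate order against a lowest of 60.2, a median of 68.1 and a highest of 88.9 CPM. The log2 changes were 1.36 ± 0.16 (SE, adjusted p = 1.19e-08), 1.13 ± 0.16 (SE, adjusted p = 6.69e-05), 0.94 ± 0.19 (SE, adjusted p = 0.000347) and 0.88 ± 0.19 (SE, adjusted p = 0.00122). None of these calls ended when any 1 library was left out, and the PFOS call ended with extraction batch as a term. Against the Ottawa pools slc38a3b changed by 0.98 ± 0.16 after PFOS (adjusted p = 3.51e-05). The copy slc38a3a rose 3.77-fold after PFOS, from 16.3, 12.4, 13.03 and 8.48 CPM in the DMSO pools to 39.1, 48.2, 55.1, 40.2 and 53.7 CPM, a log2 change of 1.91 ± 0.28 (SE, adjusted p = 6.69e-06) and of 1.14 ± 0.24 against the Ottawa DMSO pools (adjusted p = 0.000511). It rose by 1.02 ± 0.28 after PFNA and 0.91 ± 0.29 after PFHxS, and fell by 1.08 ± 0.35 after PFHxA. The PFHxS call ended without replicate 4 of PFHxS, and the PFHxA call without any 1 of 4 libraries. The stress-inducible slc38a2 fell by 1.00 ± 0.27 after PFOS (adjusted p = 0.00673) against the mixed pools, and that call ended against the Ottawa pools.

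In family 1, slc1a4, an exchanger of alanine, serine and cysteine, rose most after PFNA, from a lowest of 3.14, a median of 8.93 and a highest of 14.9 CPM in the DMSO pools to 38.7, 40.9, 26.5 and 33.2 CPM, 3.95-fold, a log2 change of 1.98 ± 0.24 (SE, adjusted p = 2.09e-08). All 4 exposed pools lay beyond the 16 DMSO pools. It also rose after PFHxS, by 1.17 ± 0.24, a call that ended with extraction batch as a term, and after PFHxA, by 0.83 ± 0.29, where the call ended without any 1 of 6 of the 10 libraries. The glutamine exchanger slc1a5 was called higher after PFHxS at 1.43 ± 0.40 (SE, adjusted p = 0.0108), but its pools read 14.1, 7.14, 11.97 and 62.5 CPM in replicate order and without replicate 4 the change was 0.32 and did not pass (adjusted p = 0.561).

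Family 6 couples substrates to sodium and chloride. The creatine carrier slc6a8 rose after the same 4 chemicals as slc38a3b. It read 79.4, 83.7, 71.4 and 82.7 CPM after PFDS against 32.6, 44.04, 36.8 and 25.2 CPM, a log2 change of 1.19 ± 0.21 (SE, adjusted p = 0.000489). After PFOS it read 65.1, 83.03, 76.2, 90.8 and 68.9 CPM against 31.1, 42.7, 36.2 and 24.4 CPM, a change of 1.19 ± 0.23 (SE, adjusted p = 0.000229), and of 0.75 ± 0.19 against the Ottawa pools (adjusted p = 0.00474). Neither comparison with the mixed pools had an overlap between the groups. After PFNA it read 107.7, 106.6, 64.3 and 109.6 CPM against a lowest of 27.9, a median of 43.8 and a highest of 106.9 CPM, with 2 of 4 pools beyond the DMSO range and a change of 0.99 ± 0.22 (SE, adjusted p = 0.00036). After PFHxS the change was 0.70 ± 0.22 (SE, adjusted p = 0.0236), with 3 of 4 pools beyond the DMSO range. That call ended with extraction batch as a term, with the replicate block and without either replicate 3 of PFHxS or replicate 4 of the Ottawa DMSO pools (adjusted p up to 0.103). The neutral amino acid carrier slc6a19b, which in mammals works at the brush border of gut and kidney, fell after PFHxA from a lowest of 69.95, a median of 96.6 and a highest of 114.2 CPM in the DMSO pools to 39.97, 37.1, 44.9 and 42.5 CPM. The exposed pools lay below all DMSO pools, and the change of -1.21 ± 0.17 (SE, adjusted p = 1.69e-05) kept its call under every alternative run. After PFHxS it fell by 0.46 ± 0.15, a call that ended without any 1 of 7 of the 10 libraries.

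**Figure D2:**
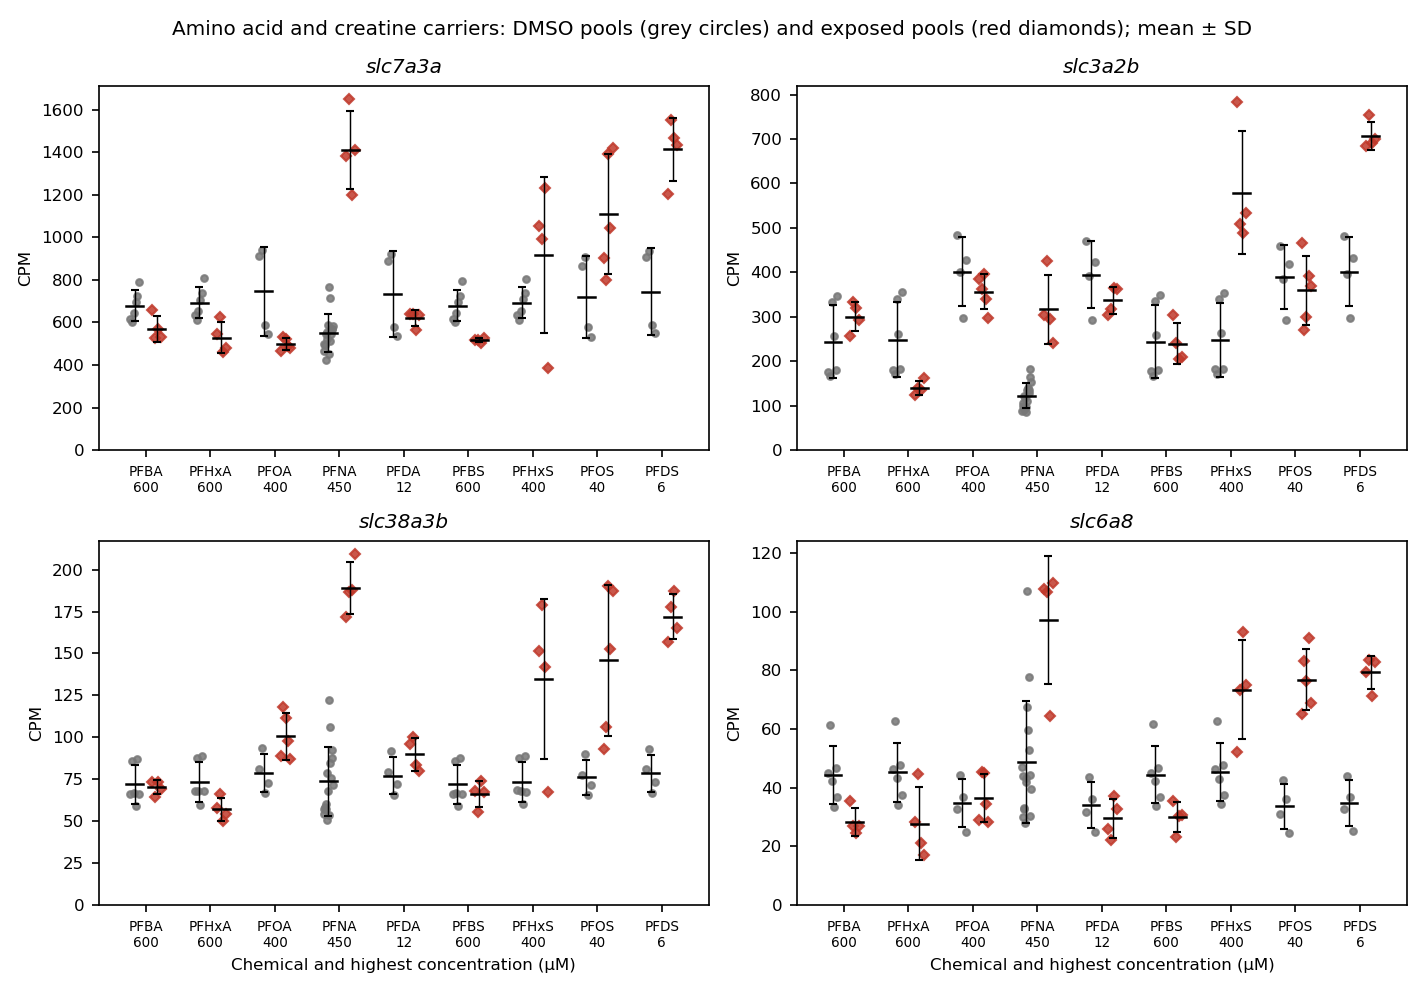
CPM (y axis, from 0) of slc7a3a, slc3a2b, slc38a3b and slc6a8 in every DMSO pool (grey circles) and exposed pool (red diamonds) at the highest concentration (µM) of each PFAS, with mean and SD. For slc38a3b and slc7a3a the PFNA and PFDS pools lie above all their DMSO pools, while PFBA, PFDA and PFBS pools passed no test.

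The remaining amino acid carriers called after PFHxA fell by smaller amounts: slc6a9, slc1a3a, slc38a5b and slc7a3a had log2 changes of -0.59 to -0.39. The large neutral amino acid light chain slc7a5 had a change of -1.79 ± 0.50 (SE, adjusted p = 0.0124) there, but its DMSO pools spread from 9.72 to 94.2 CPM around the exposed 9.68, 17.2, 13.1 and 6.33 CPM, and the direction reversed against the 6 µM pools, at 0.11.

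Glucose carriers of family 2 moved in both directions. Of the 10 tested members of families 2 and 5, which besides sugar carriers include the multivitamin carrier slc5a6a and the iodide carrier slc5a5, 4 rose and 3 fell after PFNA. The 4 were slc2a3a, slc2a1b, the myo-inositol carrier slc5a3b and slc5a6a. In the same group, after PFHxS and PFOS 3 rose, with 1 lower after PFOS, and after PFDS 1 fell. The shares of all probes called were 33.1% after PFNA, 21% after PFHxS, 26.9% after PFOS and 10.2% after PFDS. The transporter slc2a3a, a counterpart of the neuronal glucose transporter of mammals, rose 3.65-fold after PFHxS: its pools read 62.6, 74.9952, 72.7 and 76.4 CPM against a lowest of 14.6, a median of 19.5 and a highest of 25.5 CPM, a log2 change of 1.87 ± 0.16 (SE, adjusted p = 8.03e-09). After PFNA it read 43.9, 49.7, 34.3 and 58.9 CPM against a lowest of 10.8, a median of 15.6 and a highest of 25.4 CPM, a change of 1.47 ± 0.17 (SE, adjusted p = 1.79e-08). After PFOS it read 55.3, 75.4, 59.4, 47.3 and 115.6 CPM against 36.8, 38.98, 27.6 and 12.4 CPM, a change of 1.29 ± 0.30 (SE, adjusted p = 0.00186). Exposed pools lay above all DMSO pools after each of the 3 chemicals, and the PFOS call ended with extraction batch as a term. Against the Ottawa pools the PFOS change was 1.83 ± 0.24 (adjusted p = 6.21e-07). After PFDS the change of 0.60 ± 0.33 did not pass (adjusted p = 0.285).

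The copies of the widespread glucose transporter split after PFNA. The transporter slc2a1b read 203.7, 268, 215.2 and 217.4 CPM against a lowest of 82.3, a median of 130.7 and a highest of 208.99 CPM, a change of 0.73 ± 0.16 (SE, adjusted p = 0.000332), whereas slc2a1a was called lower at -1.74 ± 0.55 (SE, adjusted p = 0.0121) although all 4 exposed pools lay within the DMSO range of 1.39 to 36.7 CPM. Without replicate 4 of PFNA that change was -2.38. The slc2a1a call ended without either replicate 1 or replicate 3 of PFNA 450 µM (adjusted p up to 0.0597). It also ended against the DMSO pools of the same extraction batch and against the PFNA pools at 4 µM. slc2a1b also rose after PFOS, by 0.90 ± 0.22, and after PFHxS, by 0.79 ± 0.26; the PFOS call ended against the Ottawa pools. The liver and gut transporter slc2a2 fell after PFNA alone among the chemicals by call, from a lowest of 99.7, a median of 154.8 and a highest of 280.0 CPM in the DMSO pools to 73.9, 68.8, 73.2 and 86.02 CPM, all 4 below the DMSO pools, a change of -1.05 ± 0.16 (SE, adjusted p = 2.15e-06); whether PFNA differed from the other chemicals was not tested. The fructose transporter slc2a5 fell by 1.97 ± 0.45 after PFNA and by 1.45 ± 0.43 after PFDS. Its exposed pools read 0.614, 6.06, 2.47 and 4.67 CPM after PFNA and 2.9, 2.87, 2.66 and 2.35 CPM after PFDS, few counts a pool. The PFNA call ended against the DMSO pools of the same extraction batch, and the PFDS call without any 1 of 7 of the 8 libraries and with total-count scaling. The slc2a5 probe also read up to 182 counts in the 4 water libraries, whose totals were 165618 to 202586. In embryo libraries it read 1 to 156 counts, with a median of 24. The part of such background in the slc2a5 changes was not tested. slc2a3b was called higher after PFHxS at 1.55 ± 0.56 (SE, adjusted p = 0.0483), where its pools ranged from 0.642 to 21.3 CPM and the call ended without any 1 of 8 of the 10 libraries, and after PFOS at 1.16 ± 0.40 (SE, adjusted p = 0.0285). Without replicate 4 of PFHxS the PFHxS change was 0.66 (adjusted p = 0.492). The PFOS call ended without any 1 of 4 of the 9 libraries and with extraction batch as a term, and held against the Ottawa pools at 1.18 ± 0.35 (adjusted p = 0.0141).

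Of the 10 tested members of the monocarboxylate, fatty acid and bile acid families, PFNA called 1 higher and 5 lower, and PFOS 3 higher and 2 lower. PFHxS called 2 higher and 1 lower, and PFHxA and PFDS 1 lower each. The shares of all probes called were 33.1, 26.9, 21, 20.3 and 10.2% in that order. The group follows family numbers rather than substrates: 1 of the falls after PFNA is slc16a10, and 1 of the rises after PFHxS is slc10a7. The lactate and pyruvate carrier slc16a7 was the one carrier called lower after 5 chemicals. After PFOS it read 3.47, 5.67, 4.03, 5.41 and 5.05 CPM against 7.59, 11.2, 20.02 and 19.6 CPM, a log2 change of -1.62 ± 0.39 (SE, adjusted p = 0.00215), and after PFHxA 2.5, 3.98, 5.24 and 5.27 CPM against a lowest of 7.04, a median of 8.37 and a highest of 14.5 CPM, a change of -1.21 ± 0.31 (SE, adjusted p = 0.00667). The exposed pools lay below the DMSO pools in both, and neither call ended when any 1 library was left out, but both ended with extraction batch as a term. Against the Ottawa pools the PFOS change was -1.07 ± 0.35 (adjusted p = 0.0227). Changes after PFNA, PFHxS and PFDS were -1.04 ± 0.33, -1.02 ± 0.36 and -1.10 ± 0.36, and these calls ended without at least 1 library (any 1 of 2, 4 and 5 respectively). The PFHxS and PFDS calls also ended with total-count scaling and with extraction batch as a term. The PFNA call ended against the DMSO pools of the same extraction batch. None of the 5 slc16a7 calls therefore held under the alternative that handled extraction batch. The direction was negative in all 9 chemicals, and groups that share DMSO pools are not independent of one another. Its relatives slc16a1a and slc16a1b rose after PFOS; slc16a1a read 19.7, 11.9, 12.4, 21.4 and 10.4 CPM against 9.49, 5.25, 6.99 and 7.5 CPM, a change of 1.06 ± 0.37 (SE, adjusted p = 0.0341) that ended against the Ottawa pools.

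Fatty acid carriers of family 27 moved apart. slc27a1a rose after PFOS at 1.22 ± 0.38 (SE, adjusted p = 0.0164), a call that also ended against the Ottawa pools. After PFNA slc27a2a and slc27a4 were called lower, at -1.14 ± 0.37 (SE, adjusted p = 0.0149) and -1.89 ± 0.55 (SE, adjusted p = 0.00702), with 2 and 0 of 4 pools below the DMSO range, and neither passed against the DMSO pools of the same extraction batch. Bile acid carriers were represented by slc10a2, which takes bile acids up in the mammalian ileum, and slc51a, a subunit of the basolateral exporter. slc10a2 read 10.1, 7.08, 2.01, 6.82 and 9.79 CPM after PFOS against 22.01, 12.7, 21.6 and 16.6 CPM in the mixed DMSO pools, a change of -1.34 ± 0.36 (SE, adjusted p = 0.00607). It was also 1.36 ± 0.29 higher on the log2 scale in the mixed than in the Ottawa DMSO pools (adjusted p = 0.0164), and the PFOS call ended against the Ottawa pools. slc51a rose after PFNA, where its pools read 592, 338, 358 and 397 CPM against a lowest of 172.4, a median of 224.3 and a highest of 331 CPM, a change of 0.88 ± 0.13 (SE, adjusted p = 6.65e-07). After PFHxS it read 294, 313, 312 and 287 CPM against a lowest of 194.5, a median of 213.8 and a highest of 243 CPM, a change of 0.48 ± 0.11 (SE, adjusted p = 0.00218). Exposed pools lay above all DMSO pools in both.

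Of 6 or 7 tested mitochondrial carriers of family 25, PFOS called 2 lower and PFNA 1 lower. PFHxA, PFHxS and PFDS called 1 higher each. The shares of all probes called were 26.9, 33.1, 20.3, 21 and 10.2% in that order. slc25a4 rose after PFDS, at 1178, 1408, 1024 and 1111 CPM against 477, 594, 343 and 661 CPM, a log2 change of 1.19 ± 0.20 (SE, adjusted p = 0.000342) with no overlap. slc25a5 was called higher after PFHxS, at 3127, 2447, 3584 and 15266 CPM in replicate order against a lowest of 2011, a median of 2289 and a highest of 2896 CPM. Replicate 4 was the library that stood apart, the change was 1.38 ± 0.30 (SE, adjusted p = 0.00135), and without it the change was 0.38 (adjusted p = 0.0426). The call ended with extraction batch as a term. slc25a27, an uncoupling protein expressed in brain, rose after PFHxA by 1.09 ± 0.24 and fell after PFOS by 0.92 ± 0.27; the first call ended with extraction batch as a term and the second against the Ottawa pools. slc25a6, the third ADP/ATP exchanger, fell by 0.64 ± 0.20 after PFOS with the same loss. The 3 exchangers are close in sequence, so that their probes may not be fully separate.

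The zinc importer slc39a4, needed for zinc absorption in the mammalian gut, fell after PFNA from a lowest of 18.5, a median of 27.6 and a highest of 41.9 CPM in the DMSO pools to 11.7, 7.57, 10.6 and 5.14 CPM. After PFHxA it fell from a lowest of 22.5, a median of 28.3 and a highest of 39.95 CPM to 16.5, 8.62, 10.5 and 8.17 CPM. No exposed pool reached its DMSO pools in either comparison, and the log2 changes of -1.68 ± 0.24 (SE, adjusted p = 6.6e-07) and -1.43 ± 0.22 (SE, adjusted p = 5.79e-05) kept their calls under every alternative run. A second zinc carrier, slc39a10, fell by 0.83 ± 0.30 after PFOS (adjusted p = 0.0362), not against the Ottawa pools. Against the Ottawa pools slc39a4 was lower after PFOS, at -0.96 ± 0.19 (adjusted p = 0.000324), and it was itself lower in the mixed than in the Ottawa DMSO pools. No other of the 5 tested metal carriers was called at a highest concentration against the assigned DMSO pools.

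Among nucleoside and nucleotide sugar carriers, slc35f2 read 48.6, 41.9, 40.97, 40.7 and 40.8 CPM after PFOS against 120.3, 128.2, 99.5 and 136.3 CPM, a change of -1.51 ± 0.29 (SE, adjusted p = 0.000224) without overlap. That call ended against the Ottawa pools and against the PFOS pools at 0.4 µM. The nucleoside carrier slc29a2 fell by 1.23 ± 0.33 after PFNA at 3.07, 2.12, 6.01 and 3.04 CPM, not against DMSO pools of the same extraction batch. slc35f2 was also called lower after PFHxA at -0.67 ± 0.24 (SE, adjusted p = 0.0426), where the sign turned with extraction batch as a term and against the 6 µM pools. The citrate carrier slc13a5a fell by 0.83 ± 0.25 after PFHxA, a call that ended without replicate 3 of PFHxA and with extraction batch as a term. The organic anion carrier slc22a6l, related to the renal uptake carrier of mammals, rose after PFDS at 117.1, 94.3, 108.6 and 115.9 CPM against 73.1, 83.8, 59.4 and 62.9 CPM, a change of 0.65 ± 0.16 (SE, adjusted p = 0.0106), which ended without 1 library and with both DMSO groups pooled. It was called higher after PFOS against the mixed pools (0.59 ± 0.19) but was at -0.10 ± 0.17 against the Ottawa pools (adjusted p = 0.711), and it was lower in the mixed than in the Ottawa DMSO pools by 0.66 ± 0.17.

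After PFOS slc16a1b, slc7a6 and slc37a4b, a carrier of glucose 6-phosphate in mammals, rose by 0.86 ± 0.28, 0.79 ± 0.28 and 0.72 ± 0.21, and slc5a3b, fell by 0.43 ± 0.15, all against the mixed pools. Against the Ottawa pools slc16a1b was at 0.71 ± 0.24 and passed (adjusted p = 0.0269). The others did not, with slc7a6 at 0.57 (adjusted p = 0.0796), slc37a4b at 0.27 (adjusted p = 0.293) and slc5a3b at -0.20 (adjusted p = 0.315). After PFHxS slc10a7 and slc38a5b rose, and after PFNA slc38a5a, slc5a6a and slc5a3b rose. The other falls after PFNA were in slc1a1, slc6a3, slc13a5a, slc16a1a, slc25a6, slc16a10, slc29a1a and slc9a3r1a, with log2 changes between -1.02 and -0.45. The tested carriers of families 4, 11, 17, 18, 26, 30, 40, 44 and 47 were called after no chemical at its highest concentration. Over the tested carriers not called there, log2 changes ran from -1.84 to 1.75.

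With extraction batch as a term, the named calls that ended were slc25a27, slc1a4, slc35f2, slc13a5a, slc38a3a, slc16a7 and slc7a5 after PFHxA, and slc2a3b, slc1a5, slc25a5, slc1a4, slc6a8, slc6a19b and slc16a7 after PFHxS. After PFOS they were slc2a3a, slc2a3b, slc16a1a, slc38a3b, slc7a7, slc25a6, slc10a2 and slc16a7, and after PFDS slc22a6l, slc16a7 and slc2a5. Against each chemical's own lowest concentration, the same 7 and slc3a2b ended after PFHxA, and slc3a2b, slc7a6, slc16a7, slc27a2a, slc29a2, slc2a1a, slc27a4 and slc2a5 after PFNA. There the calls of slc2a3b, slc6a19b and slc16a7 ended after PFHxS, those of slc27a1a, slc25a6, slc25a27, slc38a2, slc10a2 and slc35f2 after PFOS, and those of slc22a6l and slc16a7 after PFDS.

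**Figure D3:**
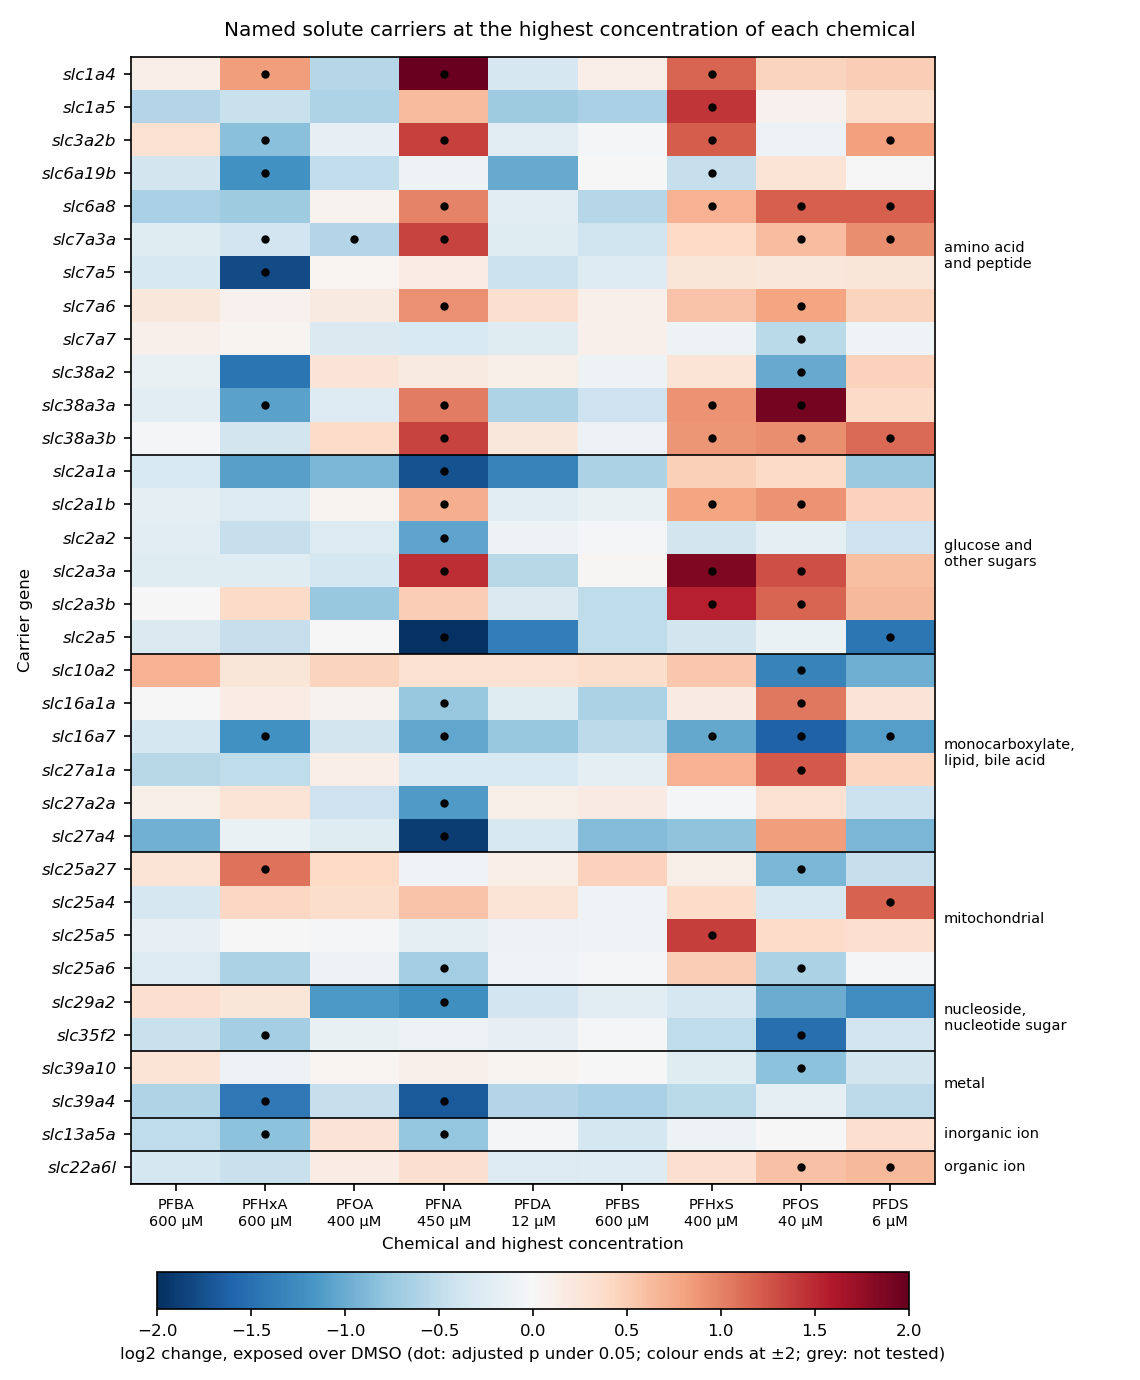
Log2 change (colour, red higher and blue lower than DMSO, ends at ±2) of the named carriers (rows, by role groups that follow family numbers, so that slc6a8 stands with the amino acid families) at the highest concentration of each PFAS (columns), with a dot for adjusted p under 0.05. slc16a7 is blue with a dot in 5 columns and slc38a3b red with a dot in 4, and the columns of PFBA, PFDA and PFBS hold no dot.

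By concentration, calls at 2 or more levels of 1 chemical in the same direction came from few carriers. slc3a2b was higher after PFNA at 20, 40, 200 and 450 µM, with log2 changes of 0.84 ± 0.18, 0.63 ± 0.18, 1.19 ± 0.18 and 1.37 ± 0.17, and read 0.74 ± 0.18 at 4 µM (adjusted p = 0.0802). Against those 4 µM pools the 450 µM call ended. slc2a2 fell at 40, 200 and 450 µM PFNA, with -0.67 ± 0.16, -0.63 ± 0.16 and -1.05 ± 0.16. At 200 and 450 µM PFNA the same direction was called for slc38a3b (0.58 and 1.36), slc7a3a (0.41 and 1.36), slc51a (0.75 and 0.88), slc39a4 (-0.98 and -1.68), slc2a5 (-1.71 and -1.97), slc16a10 (-0.61 and -0.50) and slc3a2a (-0.38 and -0.59). These 9 are all the carriers called at 200 µM PFNA. That count was 4 without replicate 3 of the 200 µM pools and 2 against the DMSO pools of the same extraction batch.

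At 200 µM PFHxS slc2a3a, slc38a3b and slc51a rose by 0.78 ± 0.17, 0.79 ± 0.19 and 0.46 ± 0.11, and all 3 rose again at 400 µM. slc26a2, a sulfate carrier, and slc22a6l rose at 200 µM only by call, by 0.57 ± 0.15 and 0.63 ± 0.19, while slc39a4 fell by 1.01 ± 0.24 and slc3a2a by 0.55 ± 0.15. slc3a2b crossed 0 with PFHxS: it read -0.81 ± 0.19 (SE, adjusted p = 0.0326) at 20 µM and 1.22 ± 0.19 (SE, adjusted p = 2.28e-05) at 400 µM. slc7a3a fell after PFHxA at 60, 200 and 600 µM, with -0.51 ± 0.11, -0.42 ± 0.10 and -0.39 ± 0.10, close to one another. At 12 µM PFOA slc6a19b fell by 0.79 ± 0.18.

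PFOS showed slc3a2b lower at 0.4, 1.2, 4 and 12 µM, with -0.68 ± 0.18, -0.91 ± 0.18, -0.92 ± 0.18 and -0.58 ± 0.17 against the mixed DMSO pools, and -0.11 ± 0.18 at 40 µM (adjusted p = 0.68). Against the Ottawa DMSO pools the same 5 values were -0.05, -0.28, -0.30, 0.05 and 0.52, the last passing (adjusted p = 0.0418) and the others not. slc35f2 fell at 4 and 40 µM, by 1.42 and 1.51, without passing at 4 or 40 µM against the Ottawa pools. At 4 µM slc38a2, slc25a4 and slc25a6 fell by 1.00, 0.90 and 0.74 against the mixed pools, and were at -0.51, -0.32 and -0.39 with no call against the Ottawa pools. At 1.2 µM slc6a19b, which differed between the DMSO groups, was at 0.75 by call against the mixed and at -0.09 against the Ottawa pools (adjusted p = 0.883). None of the 9 PFOS calls at lower concentrations held against the Ottawa pools. Against the Ottawa pools 2, 3, 3 and 4 carriers were called at 0.4, 1.2, 4 and 12 µM, where 3.3, 2.5, 2.97 and 6.67% of all probes were called. There 16 carriers were called at 40 µM, 11 higher and 5 lower, where 22.1% of all probes were called, and 9 of them were shared in direction with the 22 called against the mixed pools. The 9 shared calls were slc38a3a, slc38a3b, slc6a8, slc7a3a, slc7a7, slc2a3a, slc2a3b, slc16a1b and slc16a7. The 7 called against the Ottawa pools alone were slc1a4, slc3a2b, slc16a10 and slc51a, higher, and slc39a4, slc3a2a and slc6a19b, lower. Of these, slc51a, slc39a4 and slc6a19b differed between the DMSO groups in the same direction, at 0.55, -0.73 and -0.80 for mixed minus Ottawa. slc51a and slc16a10 were also called higher against the Ottawa pools at 1.2, 4 and 12 µM. At 1.2, 4, 12 and 40 µM slc51a was at 0.43, 0.60, 0.55 and 0.39, and slc16a10 at 0.62, 0.66, 0.64 and 0.48. Which DMSO group is the closer match for the PFOS pools was not tested beyond the scale given above.

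**Figure D4:**
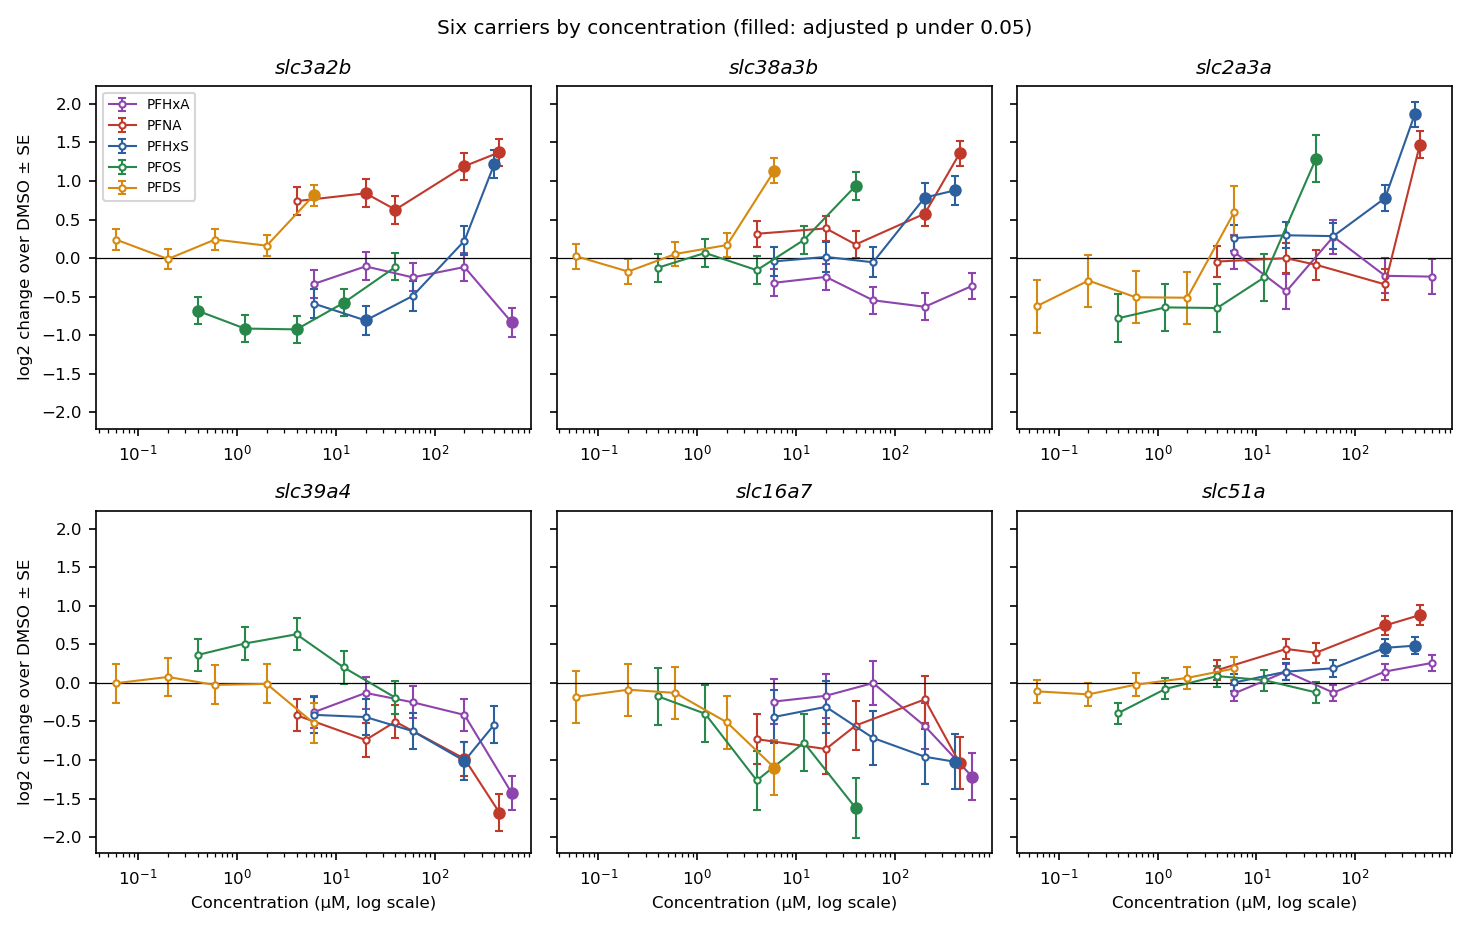
Log2 change over DMSO (y axis, ± SE) by concentration (x axis, µM, log scale) of slc3a2b, slc38a3b, slc2a3a, slc39a4, slc16a7 and slc51a for 5 PFAS, with filled points for adjusted p under 0.05. slc3a2b lies above 0 at all PFNA concentrations and below 0 at all PFOS concentrations against the mixed DMSO pools, and slc2a3a has filled points only at the 1 or 2 highest concentrations of PFNA, PFHxS and PFOS.

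In all, 5 pairs of compounds shared a concentration and a DMSO group and were compared directly, with p-values adjusted over all probes of the 5 pairs. PFOS and PFOA, PFHxS and PFHxA, and PFBS and PFBA differ in the sulfonate or carboxylate end group; PFHxA and PFBA, and PFDA and PFOA, share the carboxylate end and differ in chain length. At 40 µM, 13 carriers were higher and 8 lower after PFOS than after PFOA of 74 tested, where 28.9% of all probes were called. The largest differences were in slc38a3a, with 47.5 ± 7.3 CPM after PFOS and 8.41 ± 3.11 CPM after PFOA (SD, n = 5 each), a log2 difference of 2.50 (95% interval 1.80 to 3.19, adjusted p = 6.89e-07), followed by slc2a3a at 1.82 (95% interval 1.28 to 2.37, adjusted p = 2.89e-06) and slc2a3b at 1.75 (95% interval 0.77 to 2.72, adjusted p = 0.0128). Lower after PFOS were slc16a7 at -1.68 (95% interval -2.32 to -1.05, adjusted p = 0.000154), slc10a2 at -1.48 (95% interval -2.09 to -0.88, adjusted p = 0.000485) and slc38a2 at -1.35 (95% interval -1.80 to -0.90, adjusted p = 2.07e-05). None of these 6 calls ended when 1 library was left out. Both compounds are labelled mixed in origin, but the PFOS pools lay at 0.06 to 0.28 on the scale of origin and the PFOA pools at 0.96 to 1.28. slc10a2, slc51a, slc22a6l and slc6a19b, which differed between the DMSO groups, differed here in the direction of the Ottawa pools. The pools lay apart on this scale, which is read from expression, although their labels are the same. Its median after PFOS was 0.41, 0.54, 0.38 and 0.41 at 0.4, 1.2, 4 and 12 µM and 0.17 at 40 µM. Whether exposure itself moved the position was not tested, and compound and origin cannot be told apart in this pair. slc38a3a, slc16a7 and slc38a2 also ran in the direction of the Ottawa pools, without a call between the DMSO groups. For mixed minus Ottawa they were at -0.74, 0.59 and 0.53. slc2a3a and slc2a3b ran the opposite way, at 0.58 and 0.06.

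At 200 µM, 7 carriers were higher and 3 lower after PFHxS than after PFHxA of 76 tested (14.5% of all probes). slc7a5 differed by 1.97 (95% interval 1.07 to 2.87, adjusted p = 0.00218), slc38a3b by 1.43 (95% interval 1.01 to 1.84, adjusted p = 3.02e-06) and slc6a8 by 1.09 (95% interval 0.54 to 1.64, adjusted p = 0.00559). In slc38a3b the values were 127.1 ± 24.1 CPM after PFHxS and 47.4 ± 14.03 CPM after PFHxA (SD, n = 4 each), without overlap. The lower ones were slc29a2, slc3a2a and slc9a3r1a, at -1.65 (95% interval -2.67 to -0.64, adjusted p = 0.0282), -0.46 (95% interval -0.76 to -0.17, adjusted p = 0.0348) and -0.33 (95% interval -0.55 to -0.12, adjusted p = 0.0421), and each of these 3 calls ended without at least 4 of the 8 libraries left out in turn.

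At 600 µM no carrier was higher and 6 were lower after PFHxA than after PFBA of 76 tested (11.1% of all probes). slc3a2b had 138.4 ± 15.96 CPM after PFHxA and 303 ± 33.5 CPM after PFBA (SD, n = 4 each), a log2 difference of -1.13 (95% interval -1.49 to -0.78, adjusted p = 1.03e-05). slc6a19b differed by -0.84 (95% interval -1.26 to -0.43, adjusted p = 0.00451) and slc39a4 by -0.83 (95% interval -1.30 to -0.36, adjusted p = 0.0148), the latter call ending without any 1 of 3 of the 8 libraries. At 12 µM 2 carriers were lower after PFDA than after PFOA of 75 (2.03% of all probes), slc2a5 at -1.53 (95% interval -2.54 to -0.53, adjusted p = 0.0428) and slc16a7 at -0.83 (95% interval -1.37 to -0.29, adjusted p = 0.0395), and both calls ended without any 1 of several libraries. The water counts of the slc2a5 probe given above are a limit here too. Between PFBS and PFBA at 600 µM no carrier of 77 was called by edgeR (0.641% of all probes), and 1 had an unadjusted p under 0.05. DESeq2 also called 0. The 95% intervals of this pair had a median half-width of 0.58 on the log2 scale: slc38a3b differed by -0.09 (-0.46 to 0.28) and slc7a3a by -0.15 (-0.45 to 0.16), which leaves room for differences of that size.

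**Figure D5:**
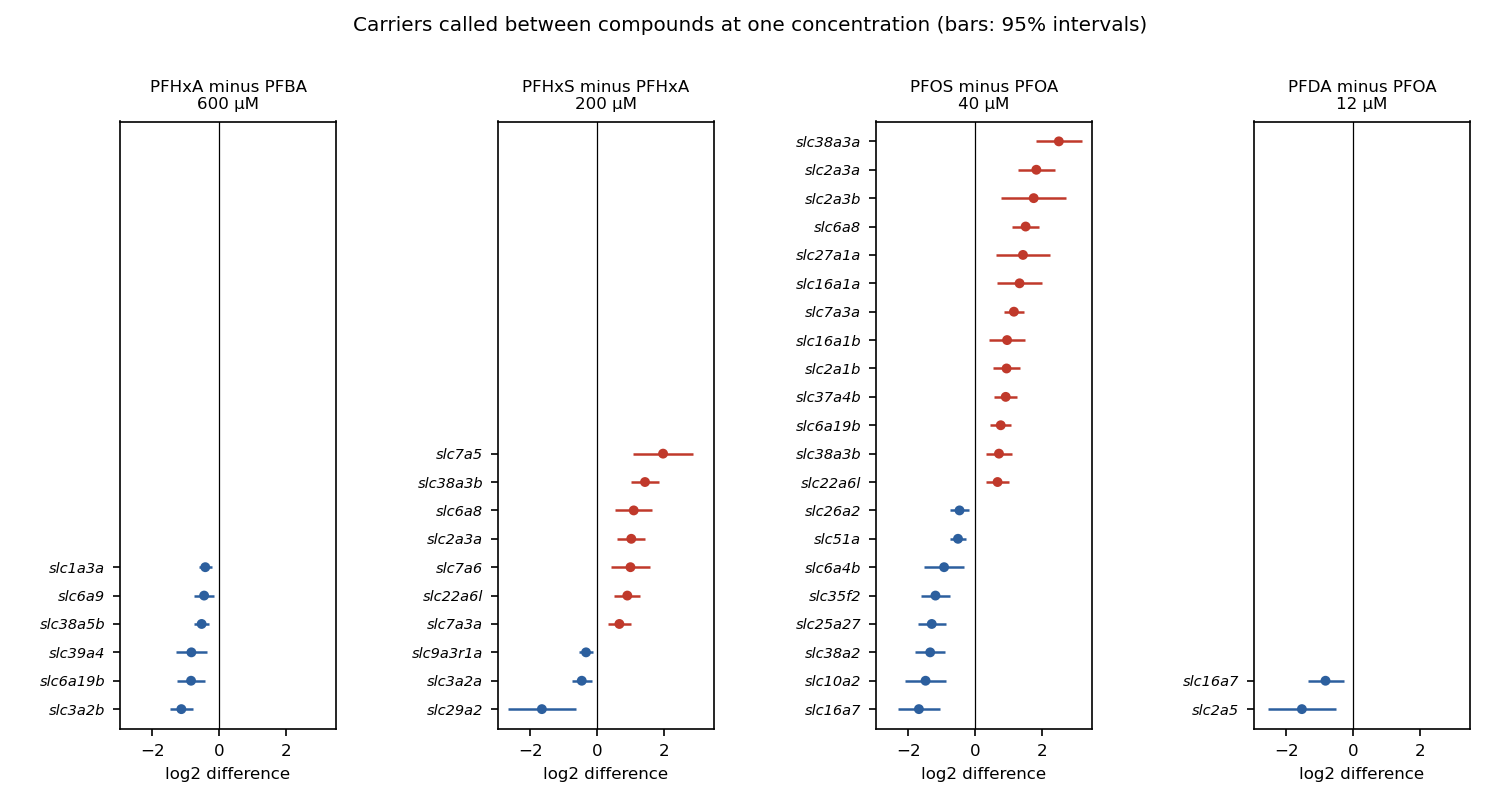
Log2 difference (x axis, with 95% intervals) of every carrier called between 2 compounds at the same concentration, red where higher and blue where lower after the first compound. The PFOS and PFOA pair holds 21 carriers, the other 3 pairs shown hold 10, 6 and 2, and the PFBS and PFBA pair held none.

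Genes of other pathways were read beside the carriers from lists chosen with these data known. Of 8 measured genes of the amino acid and integrated stress response, 6 rose and none fell after each of PFNA, PFHxS, PFOS and PFDS. Their median log2 changes were 1.42, 1.38, 0.88 and 1.00. After PFHxA 1 rose and 3 fell, after PFBS 1 fell, and after PFOA, PFBA and PFDA none was called. The summed level of the 8 was 2045 to 3065 CPM in the PFNA pools against 664 to 1724 CPM in the DMSO pools. The shares of all probes called were 33.1, 21, 26.9, 10.2, 20.3 and 0.875% after PFNA, PFHxS, PFOS, PFDS, PFHxA and PFBS. Of the family 7 carriers, slc7a5, slc7a11 and slc7a1a were called higher after no chemical at its highest concentration. The glycolytic partners hk1 and ldha both rose after PFNA, PFHxS and PFOS, and 1 of 2 after PFDS and PFHxA. Of 2 pump subunits 1 rose after PFNA, PFHxS and PFOS. Of 2 organic anion carriers with slco symbols, 1 fell after PFHxA and none was called after the others.

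Tissue markers moved with some of these changes, and since each sample is a whole-embryo pool, fewer cells of a type and less RNA per cell cannot be told apart. After PFNA the 1 measured intestinal marker fell, at 31.3 to 54.3 CPM against 48.3 to 110.7 CPM in DMSO pools, as slc39a4, slc2a2 and slc2a5 did. The bile acid exporter subunit slc51a rose after PFNA, and slc6a19b and slc10a2 were not called there. After PFHxA the intestinal marker was not called, at 51.7 to 59.6 CPM against 43.8 to 63.4 CPM, while slc39a4 and slc6a19b fell. Of 3 liver markers 1 rose and 2 fell after PFNA, with 1 and 1 after PFHxS, 2 and 1 after PFOS, none and 1 after PFDS, and 1 and none after PFOA. Of 3 retinal markers 2 fell after PFNA, PFHxS and PFOS, with summed levels after PFNA of 3507 to 4155 CPM against 5153 to 9158 CPM. The same list also had 2 lower after PFOA, pde6c lower after PFHxA by 0.74 (adjusted p = 0.00121), and pde6c higher after PFOS and PFDS. Of 3 cartilage and bone markers 2 fell after PFNA and 1 after PFOS. Of 2 muscle markers 1 rose after PFNA, PFHxS, PFOS, PFDS and PFDA, and 1 fell after PFHxS. The 1 neuronal marker was called higher after PFHxS, at 197.3 to 577 CPM against 198.95 to 243 CPM. The 2 erythroid markers were called after no chemical. RNA yield was 176.8 ± 38.2 ng/µl (SD, n = 4) in the PFNA 450 µM pools and 250.1 ± 51.1 ng/µl (SD, n = 16) in their DMSO pools, with RNA integrity numbers of 9.1 to 9.6 and 9.4 to 9.9. Mean yield was 225.3 ± 76.5 ng/µl (n = 4) after PFHxS and 254.5 ± 40.2 (n = 4) after PFHxA, against 287 ± 13.4 (n = 6) in their DMSO pools. It was 210.2 ± 60.8 (n = 5) after PFOS and 267 ± 47.9 (n = 4) after PFDS, against 251.8 ± 82.6 (n = 4). The part of tissue makeup, RNA yield or libraries that stood apart in the carrier changes was not tested.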

How the data were processed

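Probe counts of a targeted TempO-Seq panel were used as deposited: the authors' table holds raw counts per probe, with no normalization, and the tools listed by the submitters' processing notes, without roles, were R 4.4.1, STAR 2.7.10b and fastp 0.23.2. The genome build used for counting is not given in the sources used here. Each chemical was fitted with its 5 concentrations and its DMSO pools in edgeR 4.0.16 (R 4.3.3, limma 3.58.1), with filterByExpr, TMM scaling, the quasi-likelihood test and Benjamini-Hochberg adjustment over all probes of a contrast, called at 0.05. SE is the size of the log2 change over the square root of F, and 95% intervals are 1.96 SE. The 5 matched pairs were adjusted together. The procedure was tested on simulated data. Alternatives were DESeq2 1.42.0 (Wald test and size factors), total-count scaling, no low-count filter, replicate, plate or extraction-batch terms, other DMSO references and leaving out each library; the Ottawa reference for lower PFOS concentrations was added after seeing the data. Named carriers were every one called at a highest concentration where 10 or fewer were, otherwise the 8 largest rises and 8 largest falls with a mean count of 10 or more, the 3 largest pair differences each way, and those called in the same direction in 4 or more chemicals; others are named to complete the account. Members and lists were chosen with earlier results of these data known. No 2 libraries of a group agreed within counting noise (lowest chi-square per degree of freedom 6.00 over 444 pairs). Reference RNA and water libraries entered no comparison.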

Additional observations from a re-analysis of the deposited data

Results flagged for a closer look

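Over the named carriers, 1 pool lay far from the rest in 6 of the groups of 4 to 10 pools tested, which is 5.56% of them, close to the 1 group in 20 that chance alone flags. After 400 µM PFHxS, replicate 4 read 62.5 CPM for slc1a5 where the others read 7.14 to 14.1, and 15266 CPM for slc25a5 where the others read 2447 to 3584. This is the library that correlated least with its group, and without it the slc1a5 call ended. Replicate 1 of the same group read 784 CPM for slc3a2b against 488 to 533 in the others. At 450 µM PFNA replicate 3 read 64.3 CPM for slc6a8 against 106.6 to 109.6. At 600 µM PFHxA replicate 3 read 10.1 CPM for slc13a5a against 11.6 to 11.9, and at 40 µM PFOS replicate 1 read 48.6 CPM for slc35f2 against 40.7 to 41.9.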

How the results depend on the processing

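Of 79 named results, 48 kept their call without any 1 library and 31 lost it without at least 1. Among those that could be fitted, DESeq2 kept 79 of 79 calls, extraction batch as a term 35 of 63, the lowest concentration as reference 34 of 62, pooled DMSO 34 of 46, and the Ottawa pools 7 of 16 after PFOS. Counts of called carriers moved as follows. After PFHxA 600 µM (14) the count was 3 with extraction batch as a term, 3 against its own lowest concentration and 9 to 18 without 1 library, 9 without replicate 4 of PFHxA. After PFOA 400 µM (1) it was 2 by DESeq2, 0 with the replicate block, 2 with extraction batch, 0 against its lowest concentration, 9 with the DMSO groups pooled and 0 to 2 without 1 library, 0 without replicate 1 of the mixed DMSO pools. After PFNA 200 µM (9) it was 15 with the replicate block, 0 against its lowest concentration, 2 against DMSO of the same extraction batch and 4 to 11 without 1 library. After PFNA 450 µM (30) it was 12 against its lowest concentration and 19 against DMSO of the same extraction batch. Of those, 11 and 15 were shared with the 30. After PFDA 12 µM (0) it was 1 by DESeq2, 4 with pooled DMSO and 0 to 1 without 1 library, 1 without replicate 3 of the mixed DMSO pools, and at 1.2 µM 1 with pooled DMSO. After PFHxS 200 µM (7) it was 11 by DESeq2, 3 with extraction batch and 4 against its lowest concentration. After PFHxS 400 µM (15) it was 9 with the replicate block, 9 with extraction batch and 10 to 19 without 1 library. Of the 9 with extraction batch, 5 were among the 15. After PFOS 40 µM (22) it was 12 with extraction batch and 12 to 22 without 1 library, 12 without replicate 4 of the mixed DMSO pools. After PFDS 6 µM (8) it was 14 with pooled DMSO and 5 to 8 without 1 library, 5 without replicate 3 of the mixed DMSO pools. Between PFDA and PFOA at 12 µM (2) it was 1 with total counts, 1 with the replicate block and 0 to 2 without 1 library. After PFHxA slc35f2 turned to 0.48 with extraction batch and 0.14 against the lowest concentration, and slc7a5 to 0.11 against the latter; the cause was not tested. Same-numbered pools of the highest concentration and of DMSO correlated at -0.18 to 0.149. Same numbers often lay in different extraction batches there, so these values could not exclude a pairing elsewhere. Between PFOS and PFOA at 40 µM, same-numbered pools shared an extraction batch, which the main comparison of that pair did not use. The replicate block kept 69 of 79 named calls, among them all those named for that pair.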
